A study of Mus musculus with 6 samples.

Results

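The genes described here centre on the supply of amino acids and charged tRNAs, which the transcription factor ATF4 is known to promote. Atf4 itself and a few of its stress targets are included. Many of the genes are known ATF4 targets, but a place on the list does not make a gene one. The genes were chosen by name from a list of 36 genes, and their expression was compared between Igf1-/- and Igf1+/+ mouse lungs at embryonic day 18.5. A gene was taken when at least 1 probe set of the array named it alone, and the probe set with the highest mean over the 6 arrays stood for it. This gave 34 genes among the 12393 genes that the array measured by the same rule. Mars1 (methionyl-tRNA synthetase) and Pycr1 (an enzyme of proline synthesis) were named by no probe set and are not analysed here.

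ATF4 is a leucine-zipper protein whose mRNA is translated mainly when the initiation factor eIF2 is phosphorylated, which happens when a cell lacks amino acids or haem, when proteins misfold in the endoplasmic reticulum, or during viral infection. It pairs with C/EBP proteins on short promoter sequences and turns on amino acid transporters, enzymes of serine, glycine, asparagine, proline and cysteine synthesis, and the synthetases that load amino acids onto tRNAs. Growth factor signalling through mTORC1 also raises ATF4 translation. The arrays measured mRNA, so neither ATF4 protein nor eIF2 phosphorylation is part of these data.

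There were 3 arrays of Igf1-/- lungs (homozygous for a null Igf1 allele in every cell, lacking insulin-like growth factor 1) and 3 of Igf1+/+ wild type lungs, all C57BL/6J and from crosses of heterozygous parents. Methods say that pups of this age were delivered by Caesarean section and helped to breathe before dissection, so any difference in breathing cannot be told apart from genotype. The labels speak of pooled lungs and the methods of separate RNA samples, which could not be settled, and the p values cover only the spread between these arrays. Expression is given as the deposited log2 value, on which a step of 1 is a doubling, and differences are Igf1-/- minus Igf1+/+ from limma, with p adjusted by Benjamini-Hochberg over 22626 mouse probe sets. The words rose and fell are kept for an adjusted p under 0.10, and 0.20 serves as a wider level.

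Array to array correlations ran from 0.992 to 0.996. The brightest Igf1 probe set gave 8.87, 8.99 and 9.38 in the Igf1-/- arrays and 9.28, 9.85 and 9.65 in the Igf1+/+ arrays (log2 difference -0.51, adjusted p = 0.267), and the other 2 gave -0.42 and -0.58. The sources used here do not say where these probes lie relative to the disrupted part of the gene, so they do not check the genotype. All 7 lung epithelial markers were on the array, 5 of them with positive and 2 with negative differences, from -0.28 (Ager, alveolar type I cells) to 0.33 (Epcam), and none passed either level. Sftpc, the surfactant protein of alveolar type II cells, was near the top of the array's range in all 6 arrays. The mean of 6 hepatocyte markers was 8.08 in Igf1-/- replicate 2 against 5.04 to 6.45 in the other 5 arrays, and the mean of 6 heart muscle markers was 9.59 in Igf1-/- replicate 3 against 8.04 to 8.28 elsewhere. The mean of 5 erythroid markers was 6.21 to 6.30 in Igf1-/- and 6.62 to 6.71 in Igf1+/+ arrays, which rests on Slc4a1 (-1.64, adjusted p = 0.000146) and Alas2 (-0.87, adjusted p = 0.0754), which fell. The other 3, Epb42, Klf1 and Hba-a1, had differences of 0.10, 0.14 and 0.12, and the median of the list was 0.10. Epb42 and Hba-a1 were dim, with means at the 16.8 and 8.66 percentile of all probe sets, so a fall could hardly show there. The mean of 7 leukocyte markers was 8.91 to 9.23 against 8.66 to 8.78. Of these, 6 had positive differences, the largest in S100a9 (0.68) and S100a8 (0.63, both adjusted p = 0.11), and Lyz2 had -0.33. In whole lung RNA, fewer cells of a type and less RNA per cell cannot be told apart.

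The sequence element most closely tied to ATF4, the C/EBP-ATF response element, was searched as TGATGNAA on both strands in RefSeq promoters of assembly GRCm38.p6, each running from 250 bases before to 50 bases from the transcription start on. Such a window was given for 27 of the 34 genes, and 10 of them (37%) held the element, against 4.51% of 27025 genes with a window. Stretches of 30 bases that hold it are shown because the differences are later also grouped by whether a gene holds the element. Each is written 5′ to 3′ on the strand of its gene with the element in capitals.
Trib3, chr2:152344028-152344057, minus strand: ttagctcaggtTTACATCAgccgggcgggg
Chac1, chr2:119351038-119351067, plus strand: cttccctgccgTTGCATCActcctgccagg
Asns, chr6:7693214-7693243, minus strand: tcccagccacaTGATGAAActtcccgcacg
Slc7a11, chr3:50443651-50443680, minus strand: cTGATGCAAacctggagaatTTGCATCAtc
Gars, chr6:55037960-55037989, plus strand: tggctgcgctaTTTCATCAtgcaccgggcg
Iars, chr13:49682126-49682155, plus strand: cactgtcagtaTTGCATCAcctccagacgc
Tars, chr15:11399655-11399684, minus strand: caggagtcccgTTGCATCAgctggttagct
Yars, chr4:129189895-129189924, plus strand: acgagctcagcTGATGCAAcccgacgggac
Vldlr, chr19:27216809-27216838, plus strand: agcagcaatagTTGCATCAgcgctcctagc

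In Asns the element lay 23 bases before the start, in Gars 30 and in Tars 15 bases before it. Slc7a11 held a pair of elements on opposite strands, 66 and 47 bases before the start. In Iars, Yars and Trib3 the element lay 7, 3 and 14 bases after the start, and in Chac1 and Vldlr 193 and 200 bases before it. The cAMP response element, TGACGTCA, was in the window of none of the 27 genes and of 2.03% of all genes. Eif4ebp1, Cth, Slc7a5, Slc1a5, Cars, Nars and Wars had no window. A match is a description of the sequence only.

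Most of these 34 genes differed little between the genotypes. Only Aldh1l1 and Cth passed an adjusted p of 0.10 and both fell, 2 of 34 genes (5.88%) where 0.452% of all genes fell. None rose, where 0.145% of all genes did. The list was chosen with earlier results of these data known, so these shares do not test whether its genes fell more often than others. The erythroid markers Slc4a1 and Alas2, but not the other 3, of which Epb42 and Hba-a1 were dim, were also below in every mutant array. The leukocyte marker mean was above, and the part of these markers in the results was not tested. The wider level of 0.20 added no gene, where 2.72% of all genes passed. The difference was above 0 in 25 genes (73.5%) against 60.6% of all genes, and its median was 0.05 against 0.03 on the log2 scale. The median size of the difference, whatever its sign, was 0.0886 in these genes and 0.0903 in all genes. Of the 32 genes that did not pass, 18 had a 95% interval within 1.25-fold in either direction and 30 within 1.5-fold, and the intervals of Phgdh and Vldlr reached past 1.5-fold. These bounds hold only for the probe set that stood for each gene. In Aldh18a1, 1 of the 18, the interval of a further probe set reached 1.61-fold higher.

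**Figure D1:**
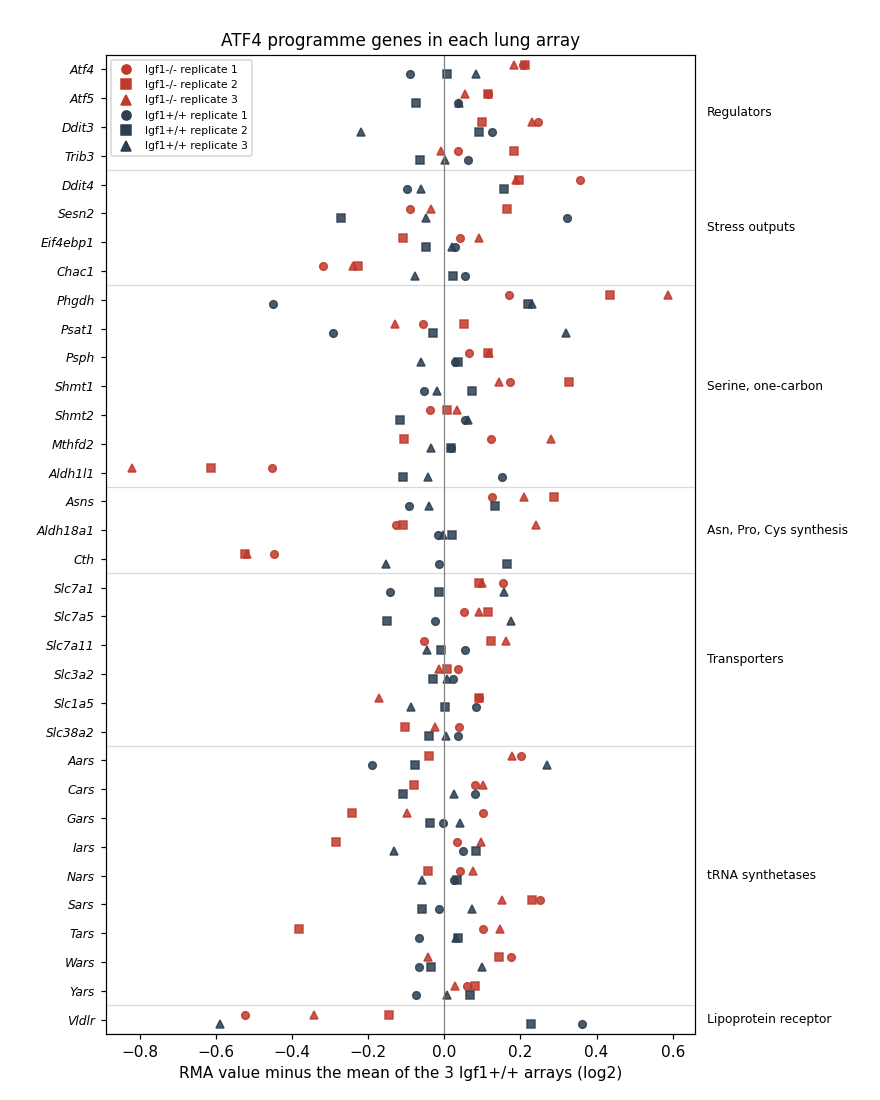
Expression of the 34 genes in each array, with 1 row per gene, as the log2 value minus the mean of the 3 Igf1+/+ arrays of that gene. Red symbols are Igf1-/- and dark symbols Igf1+/+ arrays, symbol shape gives the replicate number of the label, and all 3 red symbols lie left of the dark ones at Chac1, Aldh1l1 and Cth.

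All 3 Igf1-/- values lay above the 3 Igf1+/+ values in Atf4, Atf5, Ddit4, Psph, Shmt1 and Sars, which is 6 of 34 genes (17.6%) against 11.9% of all genes. They lay below in Chac1, Aldh1l1 and Cth, 3 genes (8.82%) against 6.84%. At an unadjusted p under 0.05 there were 5 genes higher (14.7%, against 7.04% of all genes) and 3 lower (8.82%, against 5.66%).

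**Figure D2:**
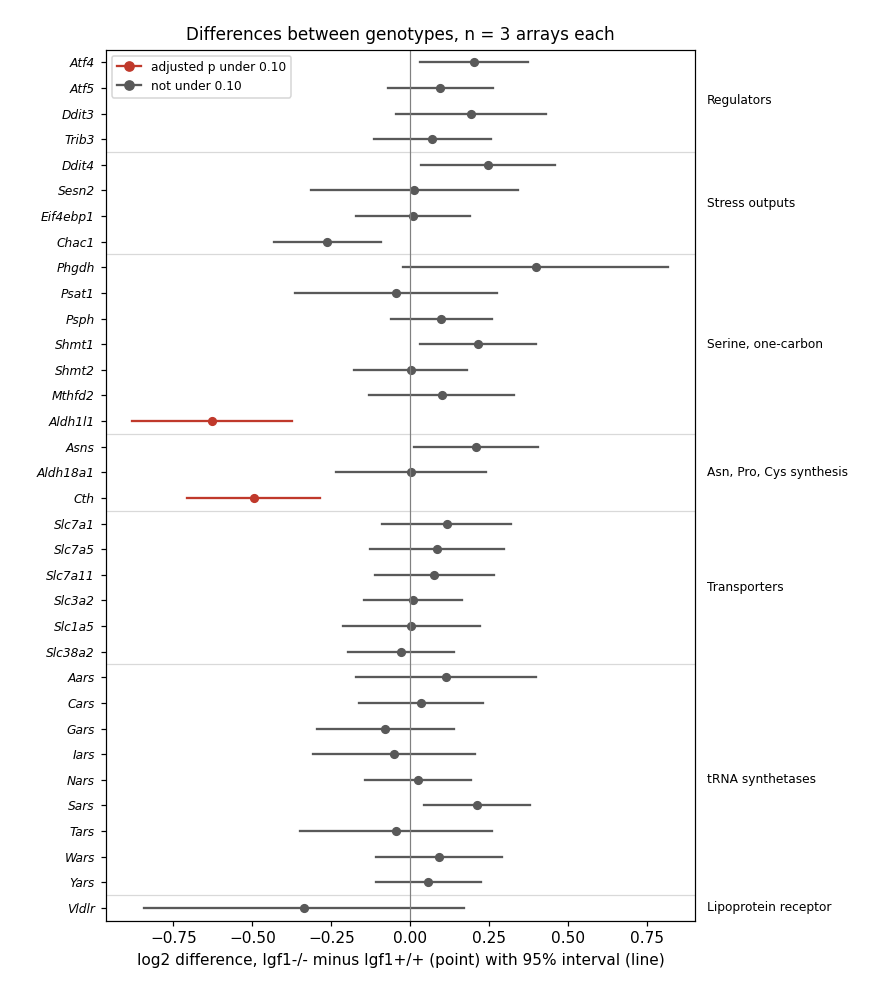
Difference between genotypes for each of the 34 genes (log2, Igf1-/- minus Igf1+/+, n = 3 arrays each), with the limma estimate as a point and its 95% interval as a line. The 2 genes in red, Aldh1l1 and Cth, had an adjusted p under 0.10, and the intervals of Phgdh and Vldlr are the widest among the genes in grey.

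All 4 regulators of the programme had a small positive difference at their brightest probe set, where 60.6% of all genes had a positive one. None passed the test. Atf4 read 10.21, 10.21 and 10.18 in the Igf1-/- arrays and 9.91, 10.01 and 10.09 in the Igf1+/+ arrays. The 3 mutant values were close together and above every wild type value, yet the difference of 0.20 (SE 0.08, 1.15-fold) had an adjusted p of 0.333. The other Atf4 probe sets gave differences of 0.06 and 0.08, with adjusted p of 0.865 and 0.683. Atf5, a relative of ATF4 that is translated under the same control, read 7.12, 7.12 and 7.06 against 7.04, 6.93 and 7.04 (0.10, adjusted p = 0.618). Ddit3 encodes CHOP, a partner that takes part in cell death after lasting stress. It read 7.43, 7.28 and 7.42 against 7.31, 7.28 and 6.97, and the groups overlapped, with Igf1+/+ replicate 3 the lowest array (0.19, adjusted p = 0.482). Trib3, a pseudokinase that feeds back on ATF4, differed by 0.07 (adjusted p = 0.747), while its other probe set gave -0.11.

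Among the stress outputs, which slow growth or break down glutathione, the differences went in both directions. Ddit4 (REDD1), an inhibitor of mTORC1, read 9.51, 9.35 and 9.35 in Igf1-/- and 9.06, 9.31 and 9.10 in Igf1+/+ arrays. The groups did not overlap, but Igf1+/+ replicate 2 came close to the lowest mutant value, and the difference of 0.25 (SE 0.09) had an adjusted p of 0.336. Chac1, an enzyme that cleaves glutathione and is among the most responsive ATF4 targets, went the other way. Its only probe set was dim, with a mean at the 26.0 percentile of all probe sets. Chac1 read 4.81, 4.90 and 4.89 against 5.18, 5.15 and 5.05, with all mutant values below all wild type values. The difference was -0.26 (SE 0.07, unadjusted p = 0.00676 and adjusted p = 0.221). Eif4ebp1, the translation repressor 4E-BP1, read 9.61, 9.46 and 9.66 against 9.59, 9.51 and 9.58, a difference of 0.01 (SE 0.08, adjusted p = 0.974). Its other probe sets gave -0.27 (adjusted p = 0.464) and 0.07. Sesn2, which inhibits mTORC1 when leucine is scarce, differed by 0.01 (adjusted p = 0.978), and 2 wild type arrays held its extremes of 6.93 and 6.34.

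Serine and one-carbon metabolism held the gene that fell most, Aldh1l1. This cytosolic enzyme oxidizes 10-formyltetrahydrofolate and so removes one-carbon units. Whether ATF4 controls it was not tested. Aldh1l1 read 6.37, 6.20 and 6.00 in the Igf1-/- arrays and 6.97, 6.71 and 6.77 in the Igf1+/+ arrays, with a clear gap between the groups. The difference of -0.63 (SE 0.11, 95% interval -0.88 to -0.38) was a 1.55-fold lower level, with an adjusted p of 0.0772. Its other probe set, which was dim in all arrays, read 4.29, 4.27 and 4.16 against 4.14, 4.25 and 4.34 and showed no such gap (-0.01, adjusted p = 0.983). The call depended on every array but one. The adjusted p was just above 0.1, 0.191 and 0.25 without Igf1-/- replicates 1, 2 and 3, 0.235 and 0.134 without Igf1+/+ replicates 1 and 2, and 0.0692 without Igf1+/+ replicate 3, while the difference stayed between -0.72 and -0.53. Aldh1l1 is known from liver and from astrocytes, and the mean of the hepatocyte markers was 5.44, 8.08 and 5.81 in the Igf1-/- arrays and 6.29, 5.04 and 6.45 in the Igf1+/+ arrays, with overlapping groups. The mean of 6 astrocyte and neural markers was 5.46 to 5.52 in Igf1-/- and 5.34 to 5.40 in Igf1+/+ arrays. Of these markers, 5 were dimmer than the median probe set, and the smallest adjusted p was 0.348. The part of either tissue in the result was not tested.

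The 250 bases before the Aldh1l1 start, shown because Aldh1l1 is the only gene with a window that fell, run over chr6:90550543-90550792 on the plus strand and hold neither element.
Aldh1l1: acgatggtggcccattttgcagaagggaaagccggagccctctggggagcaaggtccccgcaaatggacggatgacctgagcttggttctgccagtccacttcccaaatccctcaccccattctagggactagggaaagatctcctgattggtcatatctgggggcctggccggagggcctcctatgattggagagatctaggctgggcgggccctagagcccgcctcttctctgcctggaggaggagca

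None of the other serine and one-carbon genes passed the test. Phgdh, which commits glycolytic carbon to serine, had the largest positive difference of all 34 genes. It read 8.55, 8.81 and 8.97 in Igf1-/- and 7.93, 8.60 and 8.61 in Igf1+/+ arrays, and the difference of 0.40 (SE 0.19, 95% interval -0.02 to 0.82) had an adjusted p of 0.421. The groups overlapped, and the low value of Igf1+/+ replicate 1 set much of the gap, since the difference was 0.17 without that array. The other 3 probe sets gave 0.44, 0.39 and 0.18, and Igf1+/+ replicate 1 was the lowest and Igf1-/- replicate 3 the highest array at each of the 4. The mean of 7 markers of dividing cells was also lowest in Igf1+/+ replicate 1, at 9.05, and highest in Igf1-/- replicate 3, at 9.66, with 9.30 to 9.57 in the other arrays. Its part in the result was not tested.

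Psat1 and Psph carry out the next steps of serine synthesis. Psat1 read 9.74, 9.85 and 9.66 against 9.50, 9.76 and 10.11, so that the wild type arrays spanned the mutant ones (-0.04, SE 0.14, adjusted p = 0.919). Psph read 6.42, 6.47 and 6.47 against 6.38, 6.39 and 6.29, which did not overlap but were close (0.10, adjusted p = 0.595). Shmt1 and Shmt2 make glycine and one-carbon units from serine in the cytosol and in mitochondria. Shmt1 read 8.08, 8.24 and 8.05 against 7.86, 7.98 and 7.89, with all mutant values higher (0.21, SE 0.08, adjusted p = 0.337), while its other 3 probe sets gave 0.19, 0.01 and 0.01. Shmt2 and the mitochondrial folate enzyme Mthfd2 differed by 0.00 and 0.10, and both overlapped between the genotypes.

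Of the enzymes that make asparagine, proline and cysteine, Cth fell. Cth encodes cystathionine gamma-lyase, which releases cysteine from cystathionine in the last step of transsulfuration. It read 6.67, 6.60 and 6.60 in Igf1-/- and 7.11, 7.29 and 6.97 in Igf1+/+ arrays. All mutant values were below all wild type values, with a difference of -0.50 (SE 0.09, 95% interval -0.71 to -0.29), a 1.41-fold lower level at an adjusted p of 0.0917. Only 1 probe set named it. The call was lost without any one of Igf1-/- replicates 1, 2 and 3 (adjusted p = 0.212, 0.223 and 0.28) or Igf1+/+ replicates 1 and 2 (0.242 and 0.208), and was kept without Igf1+/+ replicate 3 (0.0378), with differences from -0.57 to -0.41. Cth is known for its high level in liver, and Igf1-/- replicate 2, with the highest hepatocyte marker mean, read 6.60 like Igf1-/- replicate 3. The part of liver RNA in the result was not tested.

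Asns, asparagine synthetase, carries the element next to its start and is a standard readout of amino acid shortage. It read 6.97, 7.13 and 7.05 against 6.75, 6.98 and 6.80 (0.21, SE 0.09, adjusted p = 0.378), with Igf1+/+ replicate 2 above the lowest mutant array, and its other probe set gave 0.17. Aldh18a1, which makes the precursor of proline, read 7.80, 7.82 and 8.17 against 7.91, 7.95 and 7.92. Igf1-/- replicate 3 alone was high, the difference was 0.00 (SE 0.10, adjusted p = 0.996), and the other 4 probe sets gave 0.14 to 0.37 with no adjusted p under 0.20.

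**Figure D3:**
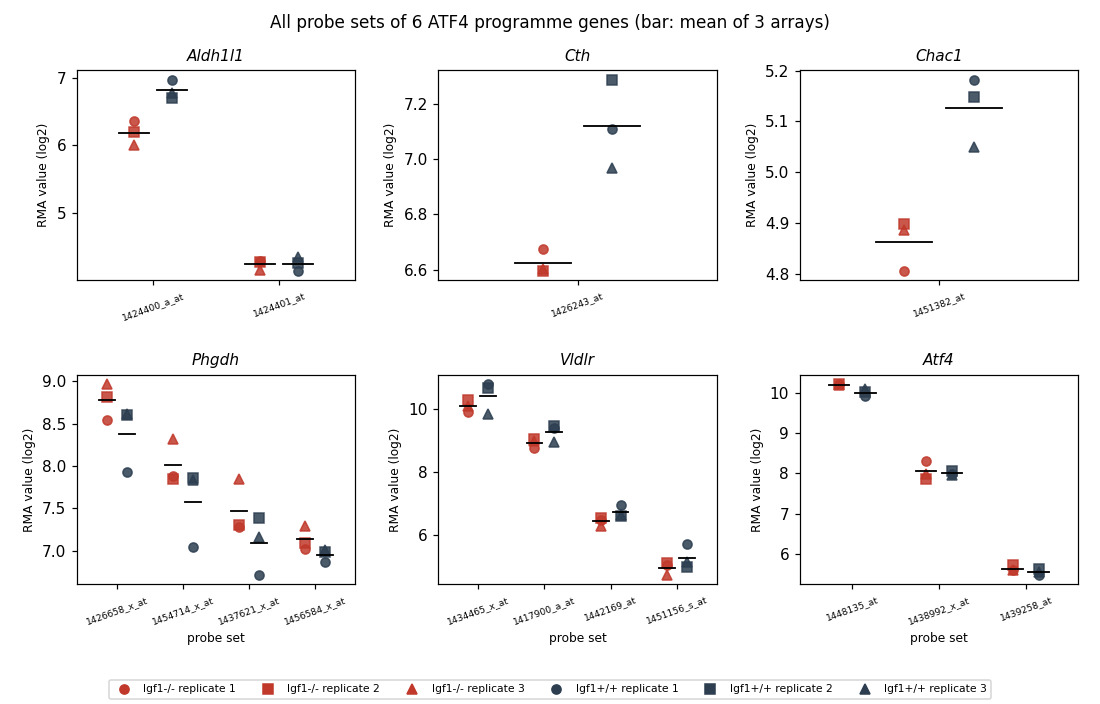
Log2 values of all probe sets of Aldh1l1, Cth, Chac1, Phgdh, Vldlr and Atf4 in the 6 arrays, with the mean of each genotype as a bar and each gene on its own axis. The lower Aldh1l1 level of the Igf1-/- arrays shows at its brighter probe set only, and at Vldlr the wild type arrays spread from 9.84 to 10.79 at the brightest probe set.

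The 6 amino acid transporters differed least. Their differences ran from -0.03 to 0.11, the widest 95% intervals reached from 1.16-fold lower to 1.25-fold higher, the groups overlapped in all 6, and the smallest adjusted p was 0.629. Slc38a2 (SNAT2), the glutamine transporter that starved cells raise, read 9.98, 9.83 and 9.91 in Igf1-/- and 9.97, 9.90 and 9.94 in Igf1+/+ arrays (-0.03, SE 0.07, adjusted p = 0.896). Slc7a1 (CAT1), a carrier of arginine and lysine, had the largest difference. It read 4.20, 4.14 and 4.14 against 3.90, 4.03 and 4.20 (0.11, SE 0.09), with the wild type arrays spanning the mutant ones. Slc7a5 (LAT1), which brings in leucine, and Slc3a2, the heavy chain it pairs with, differed by 0.09 and 0.01. Slc1a5 (ASCT2), a glutamine carrier, differed by 0.00. Slc7a11 (xCT), the cystine carrier whose promoter window holds 2 elements, differed by 0.08. The means of Slc7a1 and Slc7a11 lay at the 10.9 and 6.33 percentile of all probe sets, near the low end of the array.

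The 9 cytosolic tRNA synthetases also stayed close together, with differences from -0.08 to 0.21, a median of 0.03 and no adjusted p under 0.306. Sars, which loads serine, had the largest difference. It read 9.73, 9.71 and 9.63 in Igf1-/- and 9.47, 9.42 and 9.55 in Igf1+/+ arrays, with no overlap (0.21, SE 0.07, 1.16-fold, adjusted p = 0.306), and its other probe set gave 0.17 (adjusted p = 0.375). Nars, which loads asparagine, read 9.63, 9.55 and 9.66 against 9.61, 9.62 and 9.53 (0.02, SE 0.07, adjusted p = 0.913). Aars (alanine), Cars (cysteine), Wars (tryptophan) and Yars (tyrosine) differed by 0.11, 0.03, 0.09 and 0.06, and Gars (glycine), Iars (isoleucine) and Tars (threonine) by -0.08, -0.05 and -0.04. All 7 overlapped between the genotypes. Igf1-/- replicate 2 stood below the other mutant arrays at 6 of the 9 synthetases and was the lowest of all 6 arrays at Gars (8.68), Iars (8.27) and Tars (7.91). The mean of the 9 synthetases was 8.57 in that array, 8.75 and 8.71 in the other mutant arrays, and 8.61, 8.62 and 8.67 in the wild type arrays.

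Vldlr, the very low density lipoprotein receptor, is raised by ATF4 under endoplasmic reticulum stress. It read 9.91, 10.28 and 10.09 in the Igf1-/- arrays and 10.79, 10.65 and 9.84 in the Igf1+/+ arrays. Igf1+/+ replicate 3 was the lowest of all 6, far from the other wild type arrays, and the difference of -0.34 (SE 0.22) had an adjusted p of 0.562. Without that array the difference was -0.63 with an adjusted p of 0.0589, so that 1 array decided whether Vldlr was called. Leaving it out also raised the number of all probe sets under 0.10 from 126 to 710. Leaving out any other array gave 45 to 63. The other 3 probe sets gave -0.35, -0.29 and -0.32, with adjusted p from 0.351 to 0.489.

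Over all 34 genes, 19 had several probe sets, and in 14 of these every probe set gave a difference of the same sign. None of the 34 further probe sets had an adjusted p under 0.20, where 2.6% of all mouse probe sets did. Set against the promoter sequences, the 10 genes with the response element had 5 positive and 5 negative differences, from -0.34 to 0.21 with a median of 0.01, and none was called. The 17 genes whose windows lacked it had 14 positive and 3 negative differences with a median of 0.10, and Aldh1l1 was the only one called. In 6 of the 17 genes without the element every mutant array was higher than every wild type array. This held for 0 of the 10 genes with it. Of all genes, 11.9% had this pattern and 60.6% had a positive difference. Of the genes lower in every mutant array, Chac1 held the element, Aldh1l1 lacked it and Cth had no window, where 6.84% of all genes were lower. Response elements outside the windows or with other letters were not searched. No test of a difference between these groups was made.

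Around these genes, the kinases, phosphatase subunits and factors of the eIF2 arm, which sits upstream of ATF4, included no gene that passed 0.10 in 13 measured of 16 listed, with 9 positive and 4 negative differences (60.6% of all genes were positive). Ppp1r15a (GADD34), the stress-induced subunit that guides eIF2 dephosphorylation and is itself an ATF4 target, came closest. It read 7.61, 7.60 and 7.67 in Igf1-/- and 8.31, 8.69 and 8.07 in Igf1+/+ arrays, with no overlap (-0.72, SE 0.14, adjusted p = 0.102). The amino acid sensing kinase Eif2ak4 (GCN2) and the endoplasmic reticulum kinase Eif2ak3 (PERK) differed by 0.10 and -0.09, with adjusted p of 0.721 and 0.727.

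In the list of ATF4 partners and further stress targets, 1 of 12 genes fell and none rose, where 0.452% and 0.145% of all genes did. Of its differences 5 were positive and 7 negative, where 60.6% of all genes were positive. This list too was chosen with earlier results known. The gene that fell was Atf3, an immediate stress and injury response factor that ATF4 can induce. It read 6.27, 6.17 and 6.12 against 6.98, 7.85 and 7.23, a difference of -1.17 (SE 0.19) or 2.24-fold lower at an adjusted p of 0.0589. All mutant values were below all wild type values. The adjusted p was 0.163, 0.162 and 0.222 without Igf1-/- replicates 1, 2 and 3, and from 0.0289 to 0.0514 without 1 of the Igf1+/+ arrays. The next smallest p belonged to Cebpa, a C/EBP factor of lung epithelium and myeloid cells, at 10.46, 10.54 and 10.27 against 10.19, 9.97 and 10.13 (0.33, adjusted p = 0.232).

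**Figure D4:**
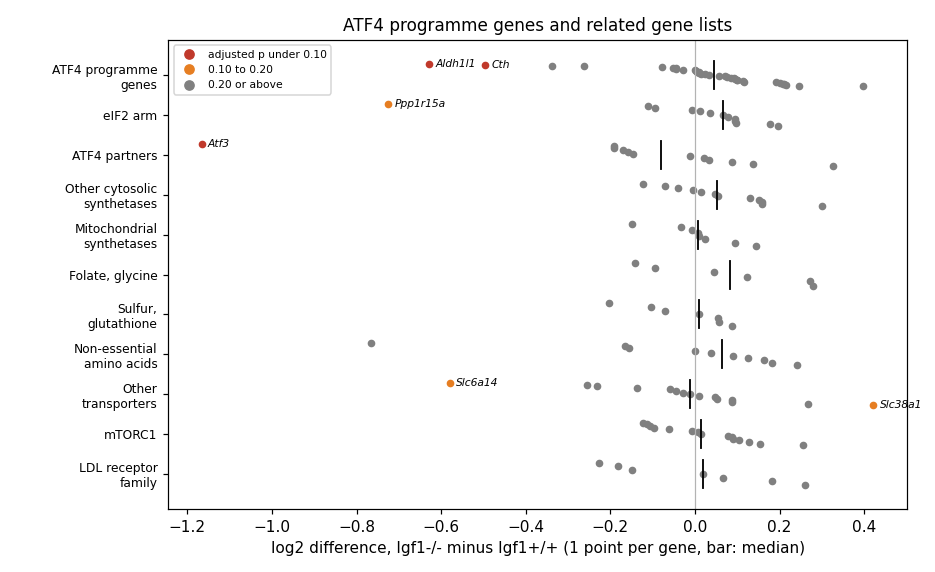
Differences between genotypes (log2, Igf1-/- minus Igf1+/+) of the 34 genes in the top row and of 10 related gene lists below, with 1 point per gene and the median of each list as a bar. Red points have an adjusted p under 0.10 and orange points one from 0.10 to 0.20, and the medians of all 11 rows lie close to 0.

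No other synthetase passed either level. The 12 measured genes for further cytosolic synthetases and their scaffold differed by -0.12 to 0.30, led by Vars (valine, 0.30, adjusted p = 0.404) and Kars (lysine, 0.16, adjusted p = 0.486). The 8 measured of 17 mitochondrial synthetases differed by -0.15 to 0.14, with Rars2 at 0.14 and Iars2 at -0.15 (adjusted p = 0.441 and 0.554).

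None of the further metabolic genes passed either level. Of 6 folate and glycine genes, Gldc and Gcsh, which belong to the glycine cleavage system, differed by 0.27 and 0.28 with no overlap (adjusted p = 0.275 and 0.287). Of 7 sulfur and glutathione genes, Gclm, the modifier subunit of glutathione synthesis, differed by -0.20 (adjusted p = 0.332), and Bhmt, which remakes methionine, by 0.09 (adjusted p = 0.739). Among 10 enzymes of other non-essential amino acids, Arg1 (arginase) read 4.74, 4.87 and 4.63 against 6.03, 5.56 and 4.94. The wild type arrays spread widely, with all mutant values lower (-0.77, SE 0.23, adjusted p = 0.233). Prodh, which breaks down proline, differed by 0.24 (adjusted p = 0.389). Arg1, Gldc and Bhmt were dim, with means at the 27.7, 24.1 and 18.6 percentile of all probe sets.

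Of 15 other amino acid transporters, 2 passed the wider level of 0.20 in opposite directions, where 2.72% of all genes passed it. Slc38a1 (SNAT1), a glutamine carrier, read 8.22, 8.11 and 8.21 in Igf1-/- and 7.59, 7.76 and 7.93 in Igf1+/+ arrays (0.42, SE 0.10, adjusted p = 0.142). Slc6a14, a broad sodium-coupled carrier, read 6.39, 6.23 and 5.90 against 6.79, 6.54 and 6.93 (-0.58, SE 0.14, adjusted p = 0.158). Both were without overlap, as were 11.9% of all genes in the higher and 6.84% in the lower direction. Of 15 mTORC1 genes, Sesn3, a relative of Sesn2, differed by 0.26 (adjusted p = 0.205) and the inhibitor Tsc2 by 0.15 (adjusted p = 0.548). Of 7 relatives of Vldlr, Lrp2 differed by -0.23 (adjusted p = 0.298) and Sorl1 by 0.26 (adjusted p = 0.365). Lrp2 was dim, with a mean at the 22.5 percentile of all probe sets.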

How the data were processed

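Lung RNA was hybridised to Affymetrix mouse oligonucleotide arrays, 3 for Igf1-/- and 3 for Igf1+/+. Whether an array held RNA of single or pooled lungs could not be settled. The deposited table holds log2 values, which the authors obtained by RMA (background corrected, quantile normalized and summarised by probe set) over these and 6 cochlear arrays, in a version not given in the sources used here. Since the arrays were normalized together, values are relative within an array, and their number limits the precision. Of 22690 probe sets, 64 controls were left out. Of the rest, 20380 had 1 symbol, 691 several and 1555 none, and only the first kind named genes.

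A linear model with genotype as its only term was fitted with limma 3.58.1 in R 4.3.3 after a check on simulated data. It stands in for the methods' SAM at the same 2 error levels, since SAM regroups samples. Given in full were genes under an adjusted p of 0.20 and, in each role, those with the largest difference and the highest mean. From the related lists, those under 0.20 or else the 2 of smallest p were named, and Eif2ak3, Eif2ak4 and Cebpa, and further genes given array by array, were added after their values were seen. The genes and lists were chosen with earlier results of these data known.

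Alternatives were a replicate block, quantile normalization, centring, leaving out dim probe sets, a variance trend with robust estimation, array weights, the mean of all probe sets of a gene, and leaving out each array. For Atf3, Ppp1r15a, Slc38a1 and Slc6a14 they were chosen after seeing the data. Promoters are those of RefSeq for GRCm38.p6. One promoter sequence is not reported here.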

Additional observations from a re-analysis of the deposited data

How the results depend on the processing

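The number of genes under an adjusted p of 0.10, 2 as reported, was 1 with the replicate block (Aldh1l1), with quantile normalization (Aldh1l1), with centring (Aldh1l1) and with the mean of all probe sets (Cth). It was 3 with array weights (Chac1 added), 2 with a variance trend and robust estimation, and 0 when probe sets under the median level were left out. That filter kept 25 genes, and Aldh1l1, Cth and Chac1 were among those it removed. Without 1 array it ranged from 0 to 3, and at 0.20 from 0 to 6. At 0.20 the count, also 2 as reported, was 0 with dim probe sets left out and 6 with array weights (Atf4 and Sars higher, and Aldh1l1, Cth, Chac1 and Vldlr lower). Of all 22626 mouse probe sets, 588 passed 0.20 as reported and 2325 with array weights. With dim ones left out, 396 of 11313 passed. Without Igf1+/+ replicate 3 it was 2888, and without any other array 88 to 204. Genes without overlap numbered 5 instead of 9 when dim probe sets were left out. The median difference, 0.0453 as reported, was 0.0338 with dim probe sets left out, 0.0752 with array weights, and 0.0249 to 0.0654 without 1 array.

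Under the replicate block Cth had an adjusted p of 0.123 and Aldh1l1 of 0.0563. Whether the replicate numbers pair the samples could not be settled. The deviations of same-numbered arrays from their genotype means correlated at -0.04, -0.23 and -0.14. All combinations of a mutant and a wild type array ran from -0.23 to 0.28, and so few arrays cannot decide it. Among all probe sets, 126 were called as reported and 628 with array weights. Without Igf1+/+ replicate 3 there were 710, and without any other array 45 to 63, and the cause was not tested.

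Signs turned only in genes with small differences. Slc1a5 was -0.0186 with array weights, and with the mean of all probe sets Trib3 was -0.0182, Eif4ebp1 -0.0613 and Wars -0.016, besides those that turned with 1 array left out. These were Sesn2 (-0.1232 to 0.1736), Eif4ebp1 (-0.0329 to 0.0666), Psat1 (-0.19 to 0.1158), Shmt2 (-0.0573 to 0.0318), Aldh18a1 (-0.1175 to 0.0655), Slc3a2 (-0.0056 to 0.0212), Slc1a5 (-0.0405 to 0.0911), Slc38a2 (-0.0632 to 0.0082), Cars (-0.0198 to 0.0909), Gars (-0.1691 to 0.0022), Iars (-0.1262 to 0.0647), Nars (-0.0046 to 0.0574) and Tars (-0.1399 to 0.1241). Of the related genes, Ppp1r15a passed 0.10 after the filter on dim probe sets (adjusted p = 0.0859), with the variance trend (0.0685), with array weights (0.0301), with the mean of probe sets (0.0634) and without Igf1+/+ replicate 3 (0.0255). Slc38a1 passed with array weights (0.0498), the mean of probe sets (0.092) and without Igf1+/+ replicate 3 (0.0514), and Slc6a14 with the mean of probe sets (0.0315). Signals of Slc7a1 and Slc7a11 lay near the low end of the array, which limits what can be seen there.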
